A study of Rattus norvegicus with 10 samples.

Results

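The genes described are 41 genes that dividing cells need to copy their DNA in S phase and to part the copies in mitosis, chosen as a list of symbols and matched to the symbol of each row of the deposited expression table. Of the 41, 40 were found among the table's 17419 transcripts and all 40 were among the 11282 genes tested. Kif4a is not analysed here. The table comes from RNA sequencing of rat knee cartilage, shaved with a blade from the rinsed surface of the joint, in 10 libraries of 4 groups. HC is healthy wild-type cartilage that received nothing (2 libraries). OAC is cartilage 4 weeks after papain and L-cysteine were put into the joint, an enzymatic injury that models osteoarthritis (3 libraries). SHAM had the same injury, a vector AAV-DJ-GFP at week 4 and sampling at week 10 (3 libraries). KT had the same injury and timing, with AAV-DJ-Klotho plus AAV-DJ-TGFBR2 in place of the GFP vector (2 libraries); the treatment is labelled αKlotho and sTGFBR2. Every library is labelled with an age of 5 months, and OAC differs from SHAM in both time and vector. The labels do not name the animal behind each library, so the p-values here measure a spread that may be technical in part.

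Cells enter S phase when E2F factors switch on the genes of the replication machinery. A ring of Mcm proteins is loaded at origins by Cdc6 and becomes the moving helicase with Cdc45 and the GINS complex, while Pcna clamps the polymerases to DNA and ribonucleotide reductase, thymidylate synthase and thymidine kinase supply the building blocks. Later in the cycle Foxm1 and the factors that read CCAAT and CHR elements switch on Cdk1, its cyclins, the mitotic kinases, the spindle motors and the proteins that end mitosis. Adult articular chondrocytes divide rarely, whereas blood cell precursors in the bone marrow under the cartilage divide often, so the marrow genes Camp (an antimicrobial peptide of neutrophil precursors) and Alas2 (the haem synthesis enzyme of red cell precursors) are given beside the list.

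The sequences just before the start of 6 of the genes are shown because they carry the elements named above and because these genes differ in role, with the 4 mitosis genes Cdk1, Ccnb1, Top2a and Mki67 first and the helicase genes Mcm5 and Mcm6 after them. Each run is the 250 bases before the annotated start, from RefSeq's promoter table in build GRCr8, written 5′ to 3′ on the gene's strand. Capitals mark matches, on either strand, to the CCAAT box, to the cell cycle homology region CHR (TTTGAA) or to 4 spellings of an E2F site (TTTGGCGC, TTTGCCGC, TTTCGCGC and TTTCCCGC). A longer run of capitals is a pair of overlapping matches.
Cdk1, chr20:19265043-19265292, plus strand: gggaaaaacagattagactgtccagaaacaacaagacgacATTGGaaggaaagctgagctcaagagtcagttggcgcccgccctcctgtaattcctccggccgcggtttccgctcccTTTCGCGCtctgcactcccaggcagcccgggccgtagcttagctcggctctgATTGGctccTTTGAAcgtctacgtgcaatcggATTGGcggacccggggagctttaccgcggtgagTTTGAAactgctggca
Ccnb1, chr2:33655226-33655475, minus strand: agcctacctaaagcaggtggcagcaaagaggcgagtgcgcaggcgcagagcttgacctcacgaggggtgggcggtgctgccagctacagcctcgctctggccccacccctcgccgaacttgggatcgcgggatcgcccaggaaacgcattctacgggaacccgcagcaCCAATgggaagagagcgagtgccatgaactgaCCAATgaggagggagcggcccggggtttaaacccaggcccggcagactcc
Top2a, chr10:84473094-84473343, minus strand: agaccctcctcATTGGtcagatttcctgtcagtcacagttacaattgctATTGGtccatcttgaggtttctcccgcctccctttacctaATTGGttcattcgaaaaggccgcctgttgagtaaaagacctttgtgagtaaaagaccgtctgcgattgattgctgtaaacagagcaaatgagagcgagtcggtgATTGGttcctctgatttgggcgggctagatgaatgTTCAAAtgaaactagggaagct
Mki67, chr1:199952594-199952843, minus strand: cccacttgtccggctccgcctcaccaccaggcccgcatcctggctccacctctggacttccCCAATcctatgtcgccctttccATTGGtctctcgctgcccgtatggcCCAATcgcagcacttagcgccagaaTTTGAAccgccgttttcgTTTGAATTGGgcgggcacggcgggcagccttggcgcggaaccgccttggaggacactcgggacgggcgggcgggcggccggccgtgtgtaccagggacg
Mcm5, chr19:13488563-13488812, plus strand: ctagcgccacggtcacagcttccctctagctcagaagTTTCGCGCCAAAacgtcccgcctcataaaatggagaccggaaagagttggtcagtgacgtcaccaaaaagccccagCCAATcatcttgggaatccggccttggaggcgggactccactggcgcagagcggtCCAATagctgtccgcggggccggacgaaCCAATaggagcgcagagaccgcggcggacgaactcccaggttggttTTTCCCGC
Mcm6, chr13:42404353-42404602, minus strand: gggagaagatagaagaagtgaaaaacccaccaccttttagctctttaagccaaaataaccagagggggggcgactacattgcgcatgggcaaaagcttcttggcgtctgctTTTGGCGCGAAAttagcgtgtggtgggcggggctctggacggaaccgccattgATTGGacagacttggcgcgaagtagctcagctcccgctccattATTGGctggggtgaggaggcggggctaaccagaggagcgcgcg

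Of the 41 genes, 31 had an entry in the promoter table. A CCAAT box was found in 23 of the 31 (74.2%), against 34% of all 33469 promoters of the same length, and at least 2 CCAAT boxes in 17 (54.8%), against 9.42%. A CHR match was found in 9 (29%), against 16.2% of all promoters, and both elements together in 8 (25.8%), against 5.87%. An E2F spelling was found in 7 (22.6%), against 1.73%. Of 12 replication and nucleotide genes with an entry, 6 held an E2F spelling, 1 a CHR and 8 a CCAAT box. Of 19 mitosis genes and cyclins with an entry, 1 held an E2F spelling, 8 a CHR and 15 a CCAAT box. The CCAAT box was thus frequent in both roles. In Cdk1 and in Ccnb1 the first bases of the CCAAT boxes nearest the start were 32 bases apart. These are matches of letters and were not tested for binding.

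**Figure D1:**
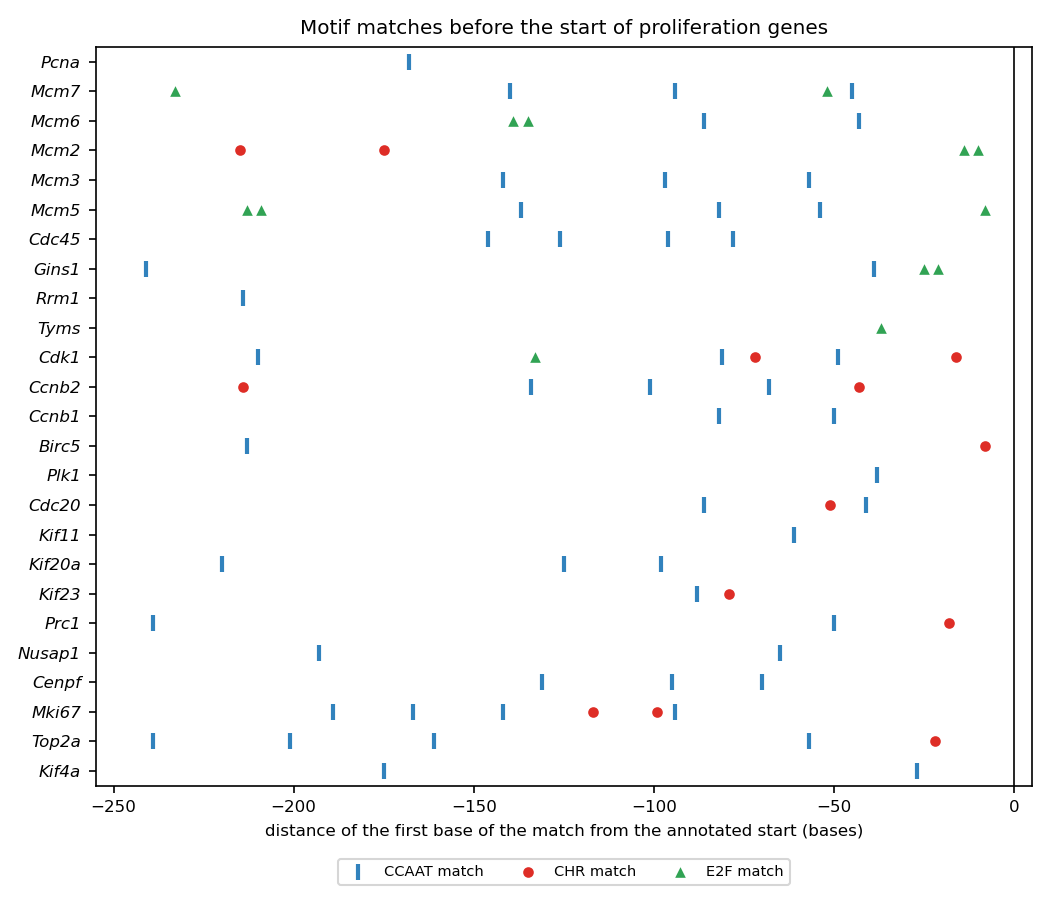
Each row is a gene with at least 1 match in the 250 bases before its annotated start (GRCr8), and the horizontal axis is the distance of the match from that start in bases. Blue bars are CCAAT boxes, red dots CHR and green triangles E2F spellings; triangles side by side are overlapping matches on opposite strands, 6 of the 7 genes with E2F matches are replication or nucleotide genes, and Kif4a has a promoter entry but no row in the expression table.

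In units of 1000000 reads, library depth was 52.4 to 70.9, read back from the smallest steps of the deposited FPKM values (fragments per kilobase of exon, scaled to library size), with 32.1 to 44.5 on listed genes, and the proliferation genes had between 98 and 23055 reads in a library. Chondrocyte markers were present throughout, with 12 of 12 detected and a summed level of 4859 to 9992 FPKM per library. Skeletal muscle markers summed to 15966 FPKM in HC replicate 1 and to 160.4 in HC replicate 2. Changes were tested with limma on log2(FPKM + 1) across all 11282 genes, and a gene is called at a Benjamini-Hochberg adjusted p under 0.05. Run names in the deposited header carry sequencing tags, of which tag 2 occurs only among the OAC runs. What the tags stand for is not known, nor which library carries which tag. If they mark batches, batch is confounded in part with the OAC group, and so with every comparison that includes OAC. No value within a batch can be given.

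At 4 weeks after papain, the proliferation genes were higher than in healthy cartilage as a block. Of the 40 genes 39 were called higher and 0 lower, where 23.4% of all genes tested were called higher and 6.27% lower. The median log2 difference was 1.37, from 0.77 for Mcm7 to 1.90 for Ube2c, while the median of all genes tested was 0.14. OAC was 1.76 to 3.89 times HC in mean FPKM. In 39 genes every OAC library lay above both HC libraries, as 41.5% of all genes tested did. Tpx2 was the exception in both counts.

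**Figure D2:**
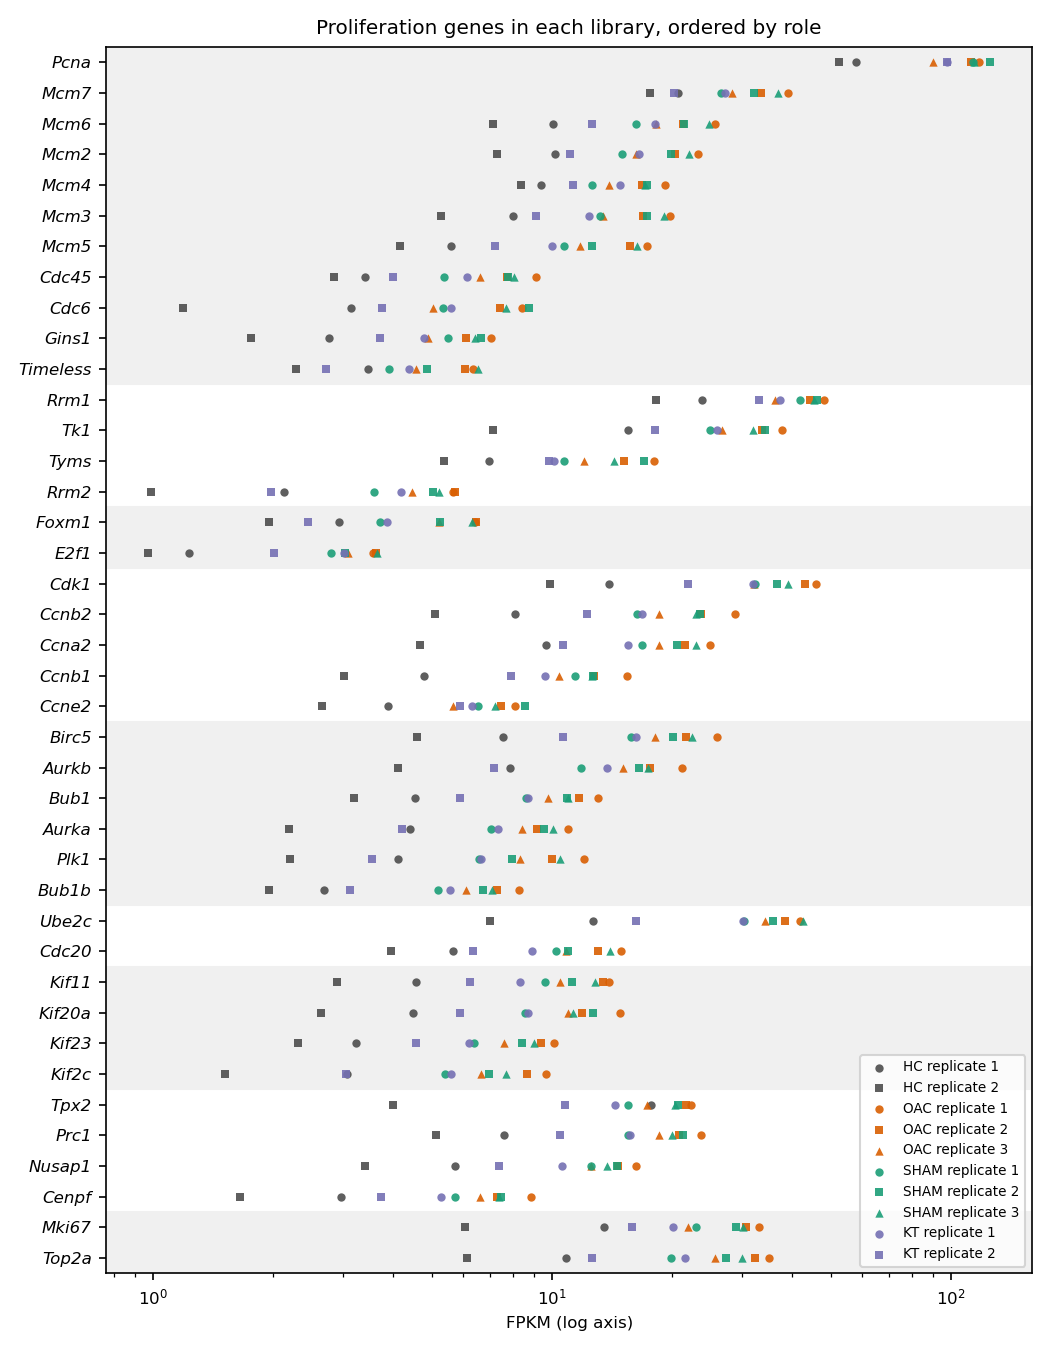
FPKM (log axis) of the 40 genes in each of the 10 libraries, 1 symbol per library, with colour for the group and shading that alternates between roles. The HC libraries (grey) lie lowest in most rows, while in 9 rows KT replicate 2 lies within the range of the HC libraries. The OAC and SHAM libraries overlap, the KT libraries lie mostly between, and Pcna stands highest at 52.4 to 125 FPKM.

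Among the 11 genes of origins and forks, all 11 were called higher in OAC, with a median log2 difference of 1.11, the smallest median of the roles with 4 or more genes. Pcna (NM_022381, chromosome 3 from 124880698 to 124884570 in rn6, as are the positions that follow), the sliding clamp and the most abundant gene of the list, stood at 57.8 and 52.4 FPKM in HC, 118, 112 and 90.4 in OAC, 114, 125 and 114 in SHAM and 98.0 and 98.0 in KT. The HC libraries were the lowest and did not overlap any other group. Its OAC mean was 1.94 times the HC mean, 107 ± 14.6 against 55.1 ± 3.86 FPKM (SD, n = 3 and 2; log2 difference 0.94, SE 0.128, limma adjusted p = 0.00178). Mcm5 (NM_001106170, chromosome 19 from 14523570 to 14560830), a subunit of the helicase ring, had the widest log2 difference of this role. It stood at 5.60 and 4.16 FPKM in HC, 17.4, 15.7 and 11.7 in OAC, 10.7, 12.6 and 16.3 in SHAM and 10.0 and 7.18 in KT. Every injured library exceeded both HC libraries, and OAC was 3.06 times HC (log2 1.43, SE 0.223, limma adjusted p = 0.00291). The 6 Mcm subunits ranged from 1.76-fold for Mcm7 and 1.87-fold for Mcm4 to 3.06-fold for Mcm5, with 2.28, 2.52 and 2.53 for Mcm2, Mcm3 and Mcm6. Cdc6, which loads the ring, was 3.21 times higher, from 2.17 ± 1.37 to 6.95 ± 1.72 FPKM, with its HC libraries 2.63-fold apart. Cdc45 and Gins1, which make the ring an active helicase, were 2.51 and 2.65 times higher. Timeless (NM_031340, chromosome 7 from 2643290 to 2667323), a protein that protects stalled forks, had the weakest call. Its values were 3.45 and 2.29 FPKM in HC, 6.35, 6.06 and 4.57 in OAC, 3.91, 4.87 and 6.53 in SHAM and 4.38 and 2.72 in KT. The OAC libraries were above both HC libraries and KT replicate 2 lay between them, with log2 0.79 (SE 0.236, limma adjusted p = 0.0346); without HC replicate 2 it was 0.57 (adjusted p = 0.171).

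The 4 genes of nucleotide supply were all called higher in OAC, with a median log2 difference of 1.24. Rrm1 (NM_001013236, chromosome 1 from 167538387 to 167562688), the large subunit of ribonucleotide reductase, stood at 23.8 and 18.3 FPKM in HC, 48.0, 44.5 and 36.2 in OAC, 41.9, 46.2 and 45.4 in SHAM and 37.3 and 33.1 in KT. Both HC libraries lay below all others, and OAC was 2.04 times HC (log2 0.996, SE 0.149, limma adjusted p = 0.00243). Tk1 (NM_052800, chromosome 10 from 106817557 to 106828884), thymidine kinase of the salvage pathway, stood at 15.5 and 7.11 FPKM in HC, 37.7, 33.6 and 26.7 in OAC, 24.9, 34.1 and 31.9 in SHAM and 25.9 and 18.1 in KT. HC replicate 1 was 2.18 times HC replicate 2, yet both were below every injured library, and OAC was 2.89 times HC (log2 1.53, SE 0.297, limma adjusted p = 0.00685). Rrm2, the small subunit of the reductase, was much scarcer than Rrm1, at 5.28 ± 0.711 FPKM in OAC and 1.56 ± 0.802 in HC, and rose 3.39-fold. Tyms, thymidylate synthase, rose 2.45-fold. The transcription factors were also scarce. E2f1 (NM_001100778, chromosome 3 from 150062895 to 150073721) stood at 1.24 and 0.974 FPKM in HC, 3.56, 3.61 and 3.08 in OAC, 2.80, 3.03 and 3.64 in SHAM and 3.01 and 2.01 in KT. The groups HC and OAC did not overlap, and OAC was 3.10 times HC (log2 1.07, SE 0.151, limma adjusted p = 0.00197). Foxm1 (NM_031633, chromosome 4 from 161685283 to 161696304), which drives the mitotic wave, stood at 2.93 and 1.96 FPKM in HC, 6.43, 6.44 and 5.22 in OAC, 3.70, 5.24 and 6.32 in SHAM and 3.86 and 2.45 in KT. OAC was 2.47 times HC (log2 1.04, SE 0.223, limma adjusted p = 0.00988), and KT replicate 2 lay between the HC libraries.

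The 5 genes of Cdk1 and the cyclins were all called higher in OAC, with a median log2 difference of 1.53. Cdk1 (NM_019296, chromosome 20 from 20576377 to 20591509), the kinase that starts mitosis, stood at 13.9 and 9.87 FPKM in HC, 45.9, 43.0 and 32.2 in OAC, 32.3, 36.6 and 39.1 in SHAM and 31.9 and 21.9 in KT. The HC libraries were the lowest, and OAC was 3.39 times HC, 40.3 ± 7.22 against 11.9 ± 2.87 FPKM (SD, n = 3 and 2; log2 1.68, SE 0.212, limma adjusted p = 0.00138). Ccnb1, a cyclin partner of Cdk1, rose 3.31-fold and Ccna2, the cyclin of S phase and G2, 3.02-fold, whereas Ccne2, which acts at the entry to S phase, rose 2.16-fold. Ccnb2 (NM_001009470, chromosome 1 from 21145356 to 21146846), another cyclin B, had the widest log2 difference of this role. Its values were 8.10 and 5.09 FPKM in HC, 28.7, 23.6 and 18.5 in OAC, 16.4, 23.5 and 23.0 in SHAM and 16.8 and 12.2 in KT. The HC libraries lay below all others, with OAC 3.58 times HC (log2 1.71, SE 0.249, limma adjusted p = 0.00223). The Ccnb2 value is uncertain as to its source. The deposited row spans 1491 bases of chromosome 1 for an exon length of 1488 bases, so it holds no intron, while RefSeq's gene table in GRCr8 puts the same transcript on chromosome 8, and reads of a near-identical copy could not be told apart. The 37 other genes of the list that were matched lay on the same chromosome in both.

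The 6 mitotic kinases, checkpoint and passenger genes were all called higher, with a median log2 difference of 1.41 and a narrow range from 1.31 for Bub1b to 1.71 for Birc5. Birc5 (NM_022274, chromosome 10 from 106856097 to 106864418), survivin, which holds Aurkb in the chromosomal passenger complex, stood at 7.54 and 4.60 FPKM in HC, 25.9, 21.7 and 18.1 in OAC, 15.8, 20.2 and 22.4 in SHAM and 16.2 and 10.7 in KT. No injured library reached down to HC, and OAC was 3.61 times HC (log2 1.71, SE 0.247, limma adjusted p = 0.00212). Its partner Aurkb rose 3.00-fold and Aurka, the kinase of the spindle poles, 2.88-fold. Plk1, the polo kinase, rose 3.21-fold, and the checkpoint kinases Bub1 and Bub1b rose 2.98-fold and 3.11-fold. Both partners of the anaphase-promoting complex, the ubiquitin ligase that ends mitosis, were called higher. Ube2c (NM_001106542, chromosome 3 from 161236971 to 161239371), its ubiquitin-conjugating enzyme, stood at 12.7 and 6.98 FPKM in HC, 41.9, 38.4 and 34.2 in OAC, 30.3, 35.9 and 42.5 in SHAM and 30.1 and 16.3 in KT. This was the widest rise of the 40 genes, 3.89-fold (log2 1.90, SE 0.287, limma adjusted p = 0.00248), with KT replicate 2 nearest to HC. Cdc20, the activator of the same complex, rose 2.69-fold.

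All 4 measured mitotic kinesins, the motors of the spindle, were called higher, with a median log2 difference of 1.53. Kif11 (NM_001169112, chromosome 1 from 256035866 to 256088299), which pushes the spindle poles apart, stood at 4.57 and 2.90 FPKM in HC, 13.9, 13.5 and 10.5 in OAC, 9.64, 11.2 and 12.8 in SHAM and 8.31 and 6.23 in KT. HC was lowest throughout and OAC was 3.38 times HC (log2 1.54, SE 0.198, limma adjusted p = 0.00151). Kif20a (NM_001108426, chromosome 18 from 27424328 to 27432814), a motor of cytokinesis, stood at 4.49 and 2.64 FPKM in HC, 14.8, 11.9 and 11 in OAC, 8.56, 12.7 and 11.3 in SHAM and 8.69 and 5.87 in KT. OAC was 3.53 times HC (log2 1.59, SE 0.235, limma adjusted p = 0.00233) without overlap. Kif23, its neighbour in cytokinesis, rose 3.26-fold, and Kif2c, which takes microtubules apart at kinetochores, 3.64-fold. Of the 4 spindle and kinetochore proteins 3 were called higher. Prc1 (NM_001107529, chromosome 1 from 142087208 to 142108746), which bundles the microtubules of the midzone, stood at 7.59 and 5.14 FPKM in HC, 23.7, 20.9 and 18.6 in OAC, 15.5, 21.4 and 20.0 in SHAM and 15.7 and 10.5 in KT. It rose 3.31-fold (log2 1.60, SE 0.214, limma adjusted p = 0.00168), Nusap1 rose 3.18-fold and Cenpf, a kinetochore protein, 3.28-fold.

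Tpx2 (NM_001107790, chromosome 3 from 148327965 to 148370187), which activates Aurka on the spindle, was the only one of the 40 genes not called in OAC. It stood at 17.7 and 4.01 FPKM in HC, 22.3, 21.7 and 17.3 in OAC, 15.5, 20.8 and 20.3 in SHAM and 14.4 and 10.8 in KT. HC replicate 1 lay within the range of the injured libraries and was 4.41 times HC replicate 2, whereas the median of that ratio over the 40 genes was 1.54 and the next highest, of Cdc6, was 2.63. The log2 difference was 1.14 (SE 0.447, limma adjusted p = 0.0856), and without HC replicate 1 it was 2.09 (adjusted p = 0.00323). The same library held the high muscle markers, and Ccng1, another cyclin gene, stood at 179 and 21.3 FPKM in the HC libraries and at 24.1 to 53.0 in the others; their part in the Tpx2 value was not tested. Both chromosome proteins were called higher. Top2a (NM_022183, chromosome 10 from 86901467 to 86930949), the topoisomerase that untangles sister chromatids, stood at 10.9 and 6.13 FPKM in HC, 35.0, 32.3 and 25.7 in OAC, 19.9, 27.2 and 30.0 in SHAM and 21.6 and 12.6 in KT. OAC was 3.65 times HC without overlap (log2 1.79, SE 0.287, limma adjusted p = 0.00323). Mki67 (NM_001271366, chromosome 1 from 207993895 to 208020454), the Ki-67 protein used to stain dividing cells, stood at 13.5 and 6.06 FPKM in HC, 33.0, 30.7 and 22.0 in OAC, 23.0, 29.0 and 30.1 in SHAM and 20.1 and 15.9 in KT. Here HC replicate 1 was 2.22 times HC replicate 2, still below every injured library, and OAC was 2.92 times HC (log2 1.53, SE 0.293, limma adjusted p = 0.00645).

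At week 10 with the GFP vector the genes lay above healthy cartilage and no difference from week 4 was called. Against HC, 38 of 40 were called higher in SHAM and 0 lower, where 21% of all genes tested were called higher and 5.48% lower, with a median log2 difference of 1.22. The 2 exceptions were Timeless (log2 0.65, limma adjusted p = 0.0725) and Tpx2 (log2 1.03, limma adjusted p = 0.123). The count was lower in a limma fit without HC replicate 2, which leaves 1 HC library. The share of all genes called in that fit is not given. Between SHAM and OAC 0 of 40 genes were called either way by limma, and 0 had an unadjusted p under 0.05. Of all genes tested 0.922% were called higher and 0.239% lower, and 4.74% and 4.28% had an unadjusted p under 0.05 in those directions. The log2 differences ran from -0.28 for Kif2c to 0.15 for Pcna, with a median of -0.12. Of the 40 genes 35 were below 0, against 56.9% of all genes tested. Those above 0 were Pcna, Ccne2, Rrm1, Cdc6 and Gins1, while 8 of the 11 origin and fork genes and 3 of the 4 nucleotide genes were below 0. SHAM replicate 1 was the highest SHAM library for 0 of the 40 genes, against 32.5% of all genes tested. OAC replicate 3 was the highest OAC library for 0 of the 40, against 24% of all genes tested. Both were the lowest library of their group for all 40 genes. The share of all genes that were lowest there is not given. HC replicate 1 exceeded HC replicate 2 for all 40 genes, against 44.9% of all genes tested. Both HC libraries enter every comparison with HC.

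**Figure D3:**
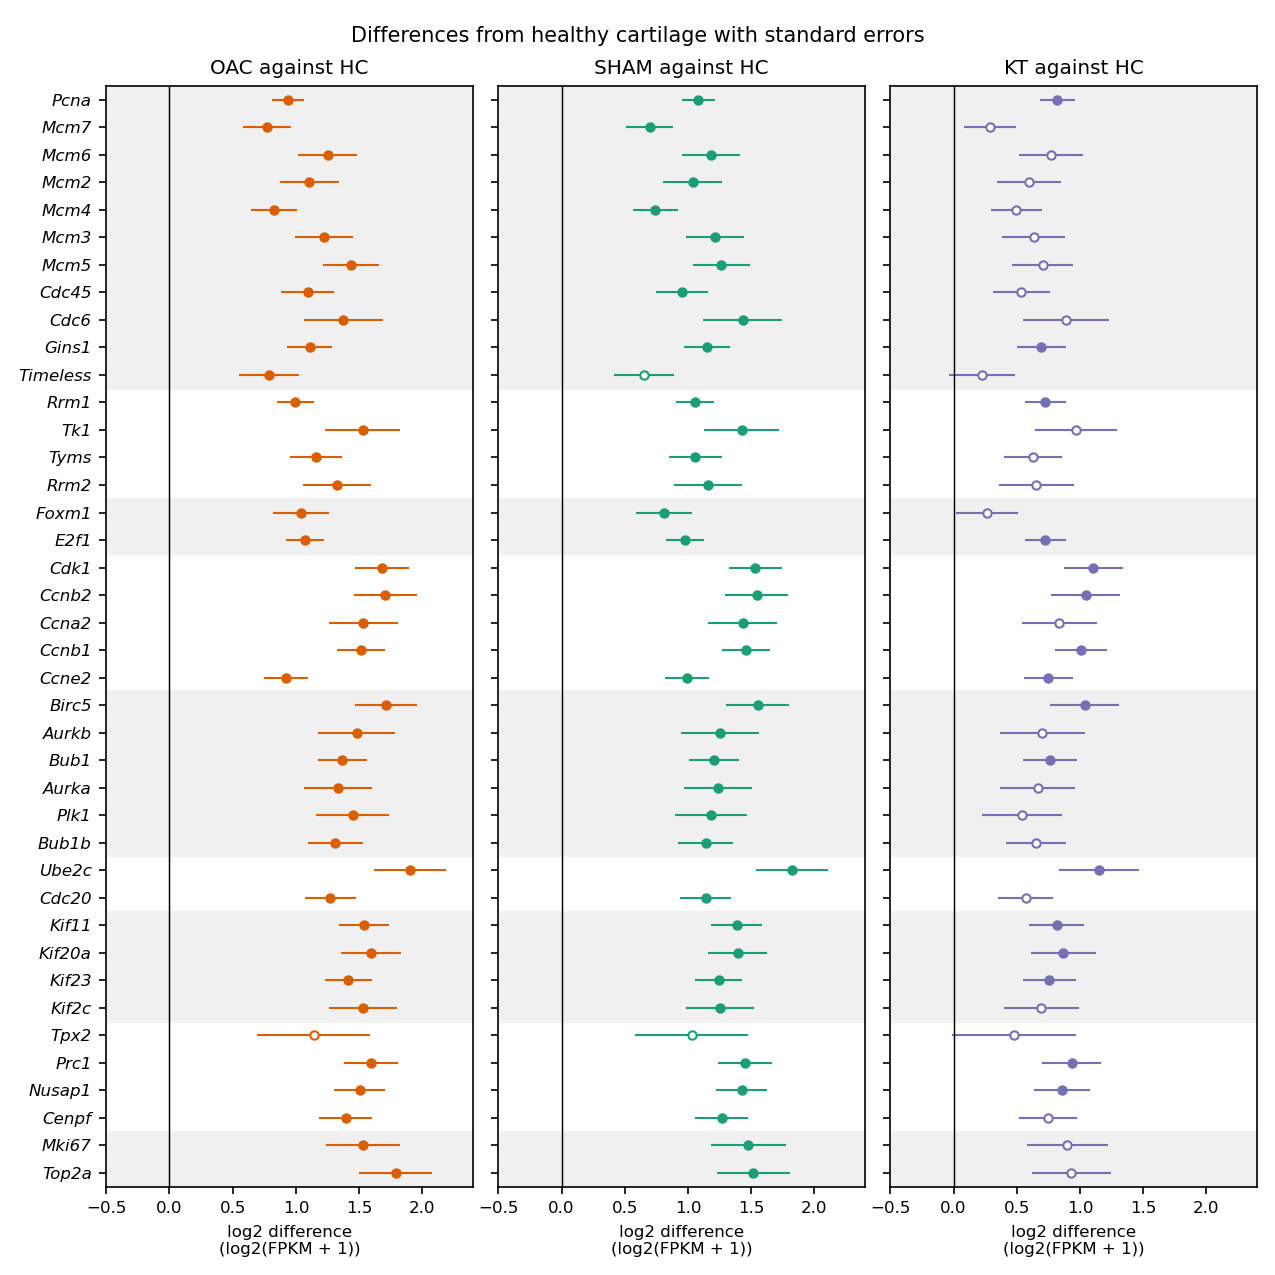
Difference from HC on the log2(FPKM + 1) scale for the 40 genes in OAC, SHAM and KT, with bars of 1 standard error from limma; filled points are called at an adjusted p under 0.05 and open points are not. The counts of filled points are 39, 38 and 16.

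In KT the genes stood between healthy cartilage and SHAM, and no single gene was called against SHAM by limma. All 40 log2 differences from SHAM were below 0, against 56.3% of all genes tested, with a median of -0.51 and a range from -0.67 for Ube2c to -0.24 for Ccne2. The count called lower was 0 of 40, where 0.683% of all genes tested were called lower, and 12 had an unadjusted p under 0.05, against 9.05% of all genes tested. The 12 were Mcm3, Mcm5, Gins1, Foxm1, Ccnb1, Cdc20, Ube2c, Kif11, Kif23, Cenpf, Nusap1 and Prc1, and the smallest adjusted p was 0.261, for Kif11. In mean FPKM KT was 16.8% to 38.9% below SHAM, least for Pcna and Mcm4 and most for Plk1 and Foxm1. In the authors' deposited table, made with DESeq2, 4 of the 40 genes passed an adjusted p of 0.05 as lower in KT than in SHAM, where 1.91% of the transcripts with a fold change did. They were Mki67 (log2 fold change -0.57, adjusted p = 0.0208), Kif11 (-0.59, 0.0334), Ccnb1 (-0.45, 0.0337) and Nusap1 (-0.57, 0.0465). The same deposited table put 39 genes lower in HC than in OAC, with Tpx2 the exception. It put 38 lower in HC than in SHAM, with Timeless and Tpx2 the exceptions. Of the transcripts with a fold change 13.3% were lower in HC than in OAC and 12.3% lower in HC than in SHAM. Between OAC and SHAM 0 of the 40 genes passed. Of the transcripts with a fold change for that pair, 2.56% were lower and 1.07% higher in OAC.

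The difference between KT and SHAM did not have the same size in both KT libraries. KT replicate 2 lay below all 3 SHAM libraries for 40 of 40 genes, as it did for 45.5% of all genes tested. KT replicate 1 lay below them for 18 genes, against 22.1% of all genes tested, and within their range for the other 22. For Cdk1 the KT libraries were at 31.9 and 21.9 FPKM and the SHAM libraries at 32.3, 36.6 and 39.1, so that KT replicate 1 was close to the lowest SHAM library. For Ube2c they were at 30.1 and 16.3 against 30.3, 35.9 and 42.5. KT replicate 1 exceeded KT replicate 2 for all 40 genes, by a median of 1.45-fold, and it was the higher of the 2 for 66.7% of all genes tested. Pcna differed least between them, at 98.0 and 98.0 FPKM, and Rrm2 most, at 4.18 and 1.98.

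**Figure D4:**
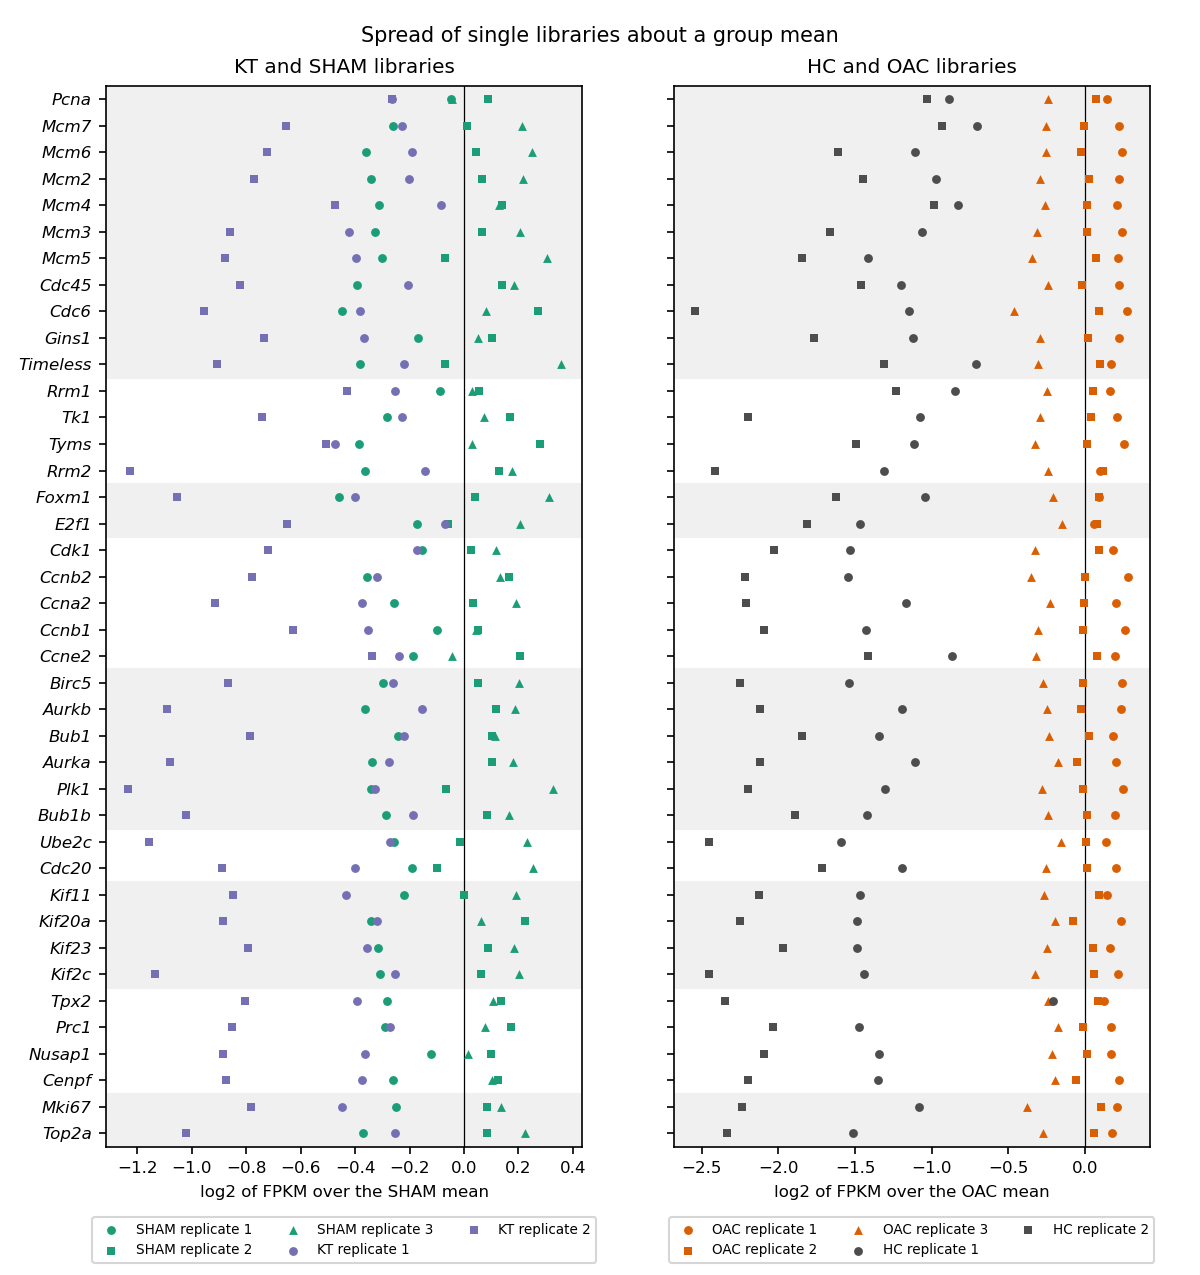
Log2 of the FPKM in single libraries over the mean of SHAM (left, with the KT libraries in purple) or of OAC (right, with the HC libraries in grey), for the 40 genes in order of role. KT replicate 2 (purple squares) lies left of all SHAM libraries in every row, while KT replicate 1 (purple dots) lies among them in 22 rows; on the right only Tpx2 has an HC library among the OAC libraries.

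Against HC, 16 of the 40 genes were called higher in KT and 0 lower, where 14.3% of all genes tested were called higher and 3.95% lower. All 40 log2 differences were above 0, as 58.7% of all genes tested were (median 0.74, from 0.23 for Timeless to 1.15 for Ube2c). The 16 were Pcna, Gins1, Rrm1, E2f1, Cdk1, Ccnb1, Ccnb2, Ccne2, Bub1, Birc5, Ube2c, Kif11, Kif23, Kif20a, Nusap1 and Prc1. By role that was 2 of 11 origin and fork genes and 4 of 5 cyclins and Cdk1, and 0 of 2 chromosome proteins. The share of all genes called is not given for the alternative fits, and the count of the 40 genes was not stable. In limma it was 1 without KT replicate 1, 3 without HC replicate 2, 7 without OAC replicate 2, 9 without SHAM replicate 2 and 24 without HC replicate 1, and it was 0 with only the KT and HC libraries in the fit. KT replicate 1 lay above both HC libraries for 39 genes and KT replicate 2 for 31, against 51.9% and 41% of all genes tested. For 9 genes KT replicate 2 lay at or below HC replicate 1: Mcm7, Timeless, Rrm2, Foxm1, Aurka, Aurkb, Plk1, Kif2c and Tpx2. Against OAC, 0 of 40 were called in KT by limma, where 0.142% of all genes tested were called lower, and 30 had an unadjusted p under 0.05 as lower, against 12.2% of all genes tested. The log2 differences ran from -0.91 for Plk1 to -0.11 for Pcna. KT against SHAM, KT against OAC and KT against HC share the KT libraries, so these values are not separate pieces of evidence.

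The marrow markers, like the proliferation genes, were higher in the injured groups than in HC. Camp stood at 128 and 119 FPKM in HC, 952, 817 and 776 in OAC, 747, 677 and 745 in SHAM and 492 and 217 in KT. It was higher in OAC than in HC (log2 2.77, limma adjusted p = 0.000941), and the KT libraries lay below all SHAM and OAC libraries. Alas2 stood at 71.5 and 60.2 FPKM in HC, 185, 125 and 105 in OAC, 142, 173 and 199.7 in SHAM and 96.8 and 102 in KT. It too was higher in OAC than in HC (log2 1.02, limma adjusted p = 0.0124), a call lost without HC replicate 2 and with array weights (adjusted p 0.0112 to 0.059 over 18 alternatives). Between KT and SHAM the log2 differences were -1.14 for Camp and -0.77 for Alas2, not called (limma adjusted p = 0.143 and 0.208). Without KT replicate 1 the log2 difference for Camp was -1.73. In the authors' deposited DESeq2 table both markers passed as lower in KT than in SHAM, as 4 of the 40 proliferation genes did. The log2 fold changes there were -1.01 for Camp (DESeq2 adjusted p = 0.0153) and -0.74 for Alas2 (DESeq2 adjusted p = 0.00231). The summed FPKM of the 40 proliferation genes was 350.5 and 235.2 in HC, 871.5, 781.6 and 635.5 in OAC, 617.3, 765.2 and 788.2 in SHAM and 596.1 and 447.8 in KT. The HC libraries were lowest and the KT libraries lay below all SHAM and OAC libraries, as for Camp and Alas2.

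Divided by Camp of the same library, the order of the groups turned round. The sum per Camp was 2.73 and 1.98 in HC, 0.915, 0.956 and 0.819 in OAC, 0.826, 1.13 and 1.06 in SHAM and 1.21 and 2.06 in KT. All HC values were above those of OAC and SHAM, and KT replicate 2 lay between the HC libraries. Divided by Alas2, the groups overlapped. The sum per Alas2 was 4.90 and 3.90 in HC, 4.72, 6.26 and 6.07 in OAC, 4.35, 4.43 and 3.95 in SHAM and 6.16 and 4.40 in KT. OAC replicates 2 and 3 and KT replicate 1 were the 3 highest, and the SHAM values lay within the range of HC. Relative to the HC mean, the OAC libraries had 2.17 to 2.98 times the summed proliferation genes, 6.28 to 7.71 times the Camp and 1.59 to 2.81 times the Alas2. In KT replicate 2 these 3 values were 1.53, 1.76 and 1.54, and in KT replicate 1 they were 2.03, 3.98 and 1.47. These are bulk samples, in which fewer cells of a type and less RNA per cell cannot be told apart, and the part of marrow cells in the proliferation genes was not tested.

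**Figure D5:**
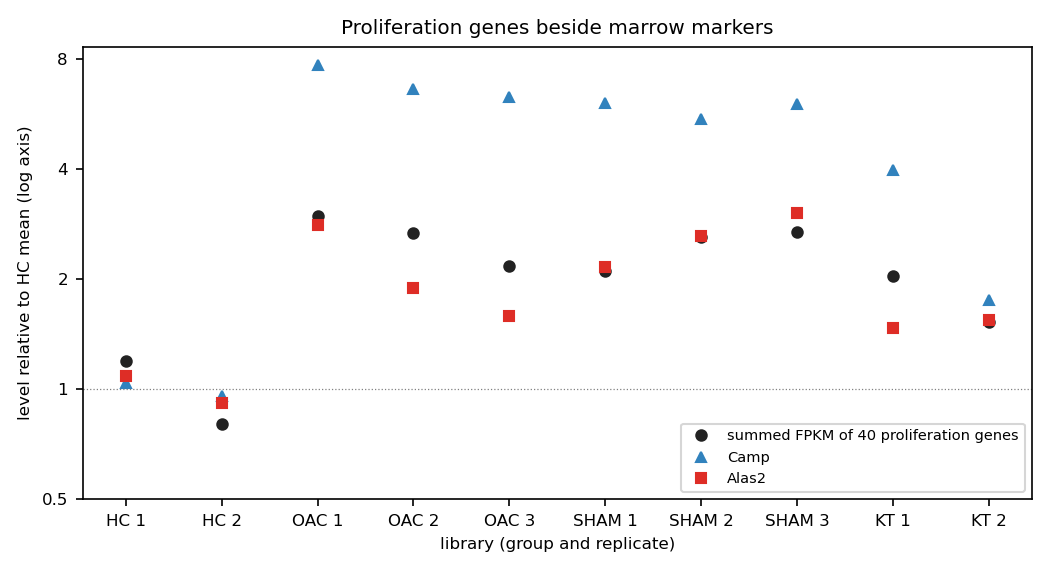
Summed FPKM of the 40 proliferation genes (black dots), Camp (blue triangles) and Alas2 (red squares) in each library, each divided by its HC mean, on a log axis. All 3 are above 1 in every injured library; Camp stands highest in every OAC, SHAM and KT library, and in KT replicate 2 all 3 lie between 1.53 and 1.76.

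Longer marker lists covered the cells that a blade could take along. Comparing OAC with HC in limma, where 23.4% of all genes tested were called higher and 6.27% lower, 8 of 8 tested markers of mature neutrophils were called higher, 5 of 6 of granulocyte precursors, 13 of 15 of erythroid precursors, 9 of 11 of B cell precursors and 4 of 4 of megakaryocytes. So were 9 of 10 macrophage and 5 of 6 osteoclast markers, while of 9 T cell markers 3 were called higher and 1 lower. Mature neutrophil markers summed to 1879 to 2383 FPKM in HC, 11989.8 to 14838 in OAC, 9667 to 11213 in SHAM and 3424 to 7784 in KT, with the HC libraries lowest and the KT libraries below SHAM. Granulocyte precursor markers summed to 189.1 to 228.5 FPKM in HC, 638.6 to 1137 in OAC, 438.2 to 867.5 in SHAM and 263.8 to 495.5 in KT. Erythroid markers summed to 13598 to 14416 FPKM in HC, 21888 to 38935 in OAC, 31193 to 41615 in SHAM and 21053 to 22441 in KT. B cell precursor markers summed to 49.6 to 51.8, 121.1 to 133.3, 87.4 to 142.7 and 69.8 to 80.1 FPKM in the same order. Osteoclast markers summed to 205.7 to 546.9, 1444 to 4686, 835.8 to 2271 and 471.6 to 1713 FPKM, and megakaryocyte markers to 79.3 to 152.2, 287.8 to 449.8, 306.3 to 500.2 and 251.5 to 401.2 FPKM. Of the defining markers, Gata1, a red cell factor, was at 0 in both HC libraries and at most at 0.056 FPKM elsewhere, and no other listed marker found in the table was at 0 throughout a group. Of 12 chondrocyte markers 2 were called higher and 2 lower in OAC, of 7 osteoblast markers 2 higher, of 6 endothelial markers 0 either way, and of 8 muscle markers 1 lower. Macrophage markers summed to 572.6 to 760.5 FPKM in KT and 525.6 to 721.7 in SHAM, with overlapping ranges. The part of any of these cells in the proliferation genes was not tested.

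The balance of S phase and mitosis genes was also read in each library. Of the summed FPKM of 15 replication and nucleotide genes and 22 mitosis genes, the first took 53.4% and 61.9% in HC, 47.2%, 47.5% and 47.1% in OAC, 51.2%, 50.3% and 48.8% in SHAM and 50.7% and 56.4% in KT. The 3 OAC libraries were the lowest and HC replicate 2 was the highest, with KT replicate 1 within the range of SHAM. Relative to the HC mean, the median level in OAC was 2.03 to 2.93 times for the replication and nucleotide genes and 2.72 to 3.73 times for the mitosis genes. Pcna alone gave 52.4 and 57.8 FPKM of the first sum's 142 and 182.9 FPKM in the HC libraries. Ccna2 and Tpx2 were counted with the mitosis genes, while Ccne2, E2f1 and Foxm1 were in neither sum. Tpx2 gave 17.7 of the second sum's 159.6 FPKM in HC replicate 1 and 4.01 of 87.6 FPKM in HC replicate 2. The shares of the 2 sums were not tested.

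The rest of the cell cycle was followed in 5 further lists, with OAC against HC first, where 23.4% of all genes tested were called higher and 6.27% lower and the median of all was 0.14. Of 51 tested other genes of mitosis 48 were called higher and 0 lower, with a median log2 difference of 1.23. Cdca3, a trigger of mitotic entry, differed by 1.77, the kinesin Kif22 by 1.69, the tubulin-binding Stmn1 by 1.66 and the kinetochore protein Nuf2 by 1.56. The 3 that were not called were Zwint (-0.27), Dlgap5 (0.49) and Hmgb2 (1.501, whose SHAM libraries ran from 4.64 to 42.5 FPKM). When 1 library was left out, Zwint was called lower without SHAM replicate 3, Dlgap5 higher without HC replicate 2 and Hmgb2 higher without SHAM replicate 1. Zwint was also called lower with quantile or median-of-ratios scaling and with voom. Of 36 other replication genes 27 were called higher and 0 lower, with a median of 0.86. They include the histone chaperone Asf1b (1.72), Uhrf1, which carries methylation through replication (1.55), the licensing inhibitor Gmnn (1.36) and the polymerase subunit Pole2 (1.31). Of the 36 only Orc2, an origin recognition subunit, lay below 0 (-0.29, limma adjusted p = 0.132; called lower with quantile or median-of-ratios scaling). Of 18 G1 cyclins, kinases and pocket proteins 12 were called higher and 0 lower, with a median of 0.76, among them Ccne1 (1.48), Ccnd3 (1.16), Cdk6 (1.02) and Myc (0.996). Of this list 3 lay below 0 without a call: the pocket protein Rbl2 (-0.36, called lower with the same scalings), E2f6 (-0.33, which was 0.36 without HC replicate 1 and was called lower at -1.02 without HC replicate 2) and the D cyclin Ccnd2 (-0.02, which was 0.28 without HC replicate 2). Of 13 DNA damage and repair genes 11 were called higher, such as H2afx (1.21) and Chek2 (1.10), and Brca2 and Fanca were not, although Fanca was called without HC replicate 1. Of 10 cell cycle inhibitors 3 were called higher and 0 lower, with a median of 0.15, close to the share and the median of all genes tested: Cdkn2c (1.13), Btg1 (0.66) and Ccng2 (0.48). The log2 differences of the 10 ran from -1.03 to 1.13, with 4 below 0. Cdkn1a, the p21 inhibitor, stood at 17.4 and 11.5 FPKM in HC, 10.3, 15.4 and 15.7 in OAC, 10.7, 8.09 and 13.9 in SHAM and 14.7 and 11.9 in KT, with the groups overlapping.

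Comparing KT with SHAM or OAC, the inhibitor list held the only called genes of these 5 lists. Cdkn2b, the p15 inhibitor of Cdk4 and Cdk6, stood at 0.832 and 0.814 FPKM in HC, 0.529, 0.934 and 0.679 in OAC, 0.783, 1.14 and 0.849 in SHAM and 2.83 and 2.29 in KT. Both KT libraries were above all others, and the difference was called against SHAM (log2 0.89, limma adjusted p = 0.0279) and against OAC (log2 1.06, limma adjusted p = 0.0331). The direction held in all 18 alternatives and the call did not: it was lost against SHAM in 10 of 18 (limma adjusted p 0.011 to 0.125 over the 18), among them leaving out any 1 of the SHAM or KT libraries or OAC replicate 3, and against OAC in 8 of 18 (0.0198 to 0.204), among them leaving out OAC replicate 1 or 3, any 1 SHAM library or KT replicate 2. Cdkn2a, the gene of the p16 inhibitor and of ARF, stood at 0.144 and 0.108 FPKM in HC, 0.125, 0.633 and 0.252 in OAC, 0.535, 0.925 and 0.636 in SHAM and 1.90 and 3.42 in KT. The KT libraries were again the highest, called against OAC (log2 1.44, limma adjusted p = 0.0385) and not against SHAM (log2 1.08, limma adjusted p = 0.0648). The call against OAC was lost in 15 of 18 alternatives (limma adjusted p 0.0196 to 0.338), which included leaving out any 1 library other than KT replicate 1, and one against SHAM appeared without KT replicate 1 (adjusted p = 0.042). Of the KT libraries, replicate 2 was the higher for Cdkn2a and replicate 1 for Cdkn2b. Across all genes tested 0.363% were called higher in KT than in SHAM and 0.257% higher in KT than in OAC. The inhibitors as a list did not share a direction. Of the 10 tested, 2 were higher and 3 lower in KT than in SHAM at a limma unadjusted p under 0.05. Those shares were 5.54% and 9.05% over all genes tested. The median log2 difference of the 10 inhibitors was -0.05, with 6 below 0. In the other lists no gene was called between KT and SHAM. Of other mitosis genes 27 of 51 had an unadjusted p under 0.05 as lower in KT, against 9.05% of all genes tested, with a median log2 difference of -0.45; Zwint alone lay above 0 (0.09). That count was 4 of 36 for other replication genes and 2 of 13 for DNA damage and repair genes, with a median of -0.33 in each, beside a share of 9.05% over all genes. The G1 list was mixed, with 3 of 18 lower and 2 of 18 higher at an unadjusted p under 0.05, where 5.54% of all genes tested were higher, and a median of -0.23. The 3 G1 genes above 0 were Ccnd1 (0.60), Ccnd2 (0.39) and Cdk4 (0.27). Between SHAM and OAC 0 genes of the 5 lists were called by limma, with 3 at an unadjusted p under 0.05.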

How the data were processed

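The authors' deposited FPKM table gives 1 transcript per gene, and their deposited comparison table gives log2 fold changes, p-values and adjusted p-values for 4 pairs of groups. Per the file headers, reads over exons were counted with HOMER on the minus strand and tested with DESeq2. STAR 2.5.3a, FastQC 0.11.2, DESeq2 1.18.1, HOMER and the rat build rn6 are listed in the submitters' processing notes; transcript positions here are those of the deposited table. The header's input name holds a word for removal, and what it refers to is not known from the labels.

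Depth was read back from the smallest FPKM step of each library; over 99.9% of checked values came out within 0.15 of a whole read, against 30% by chance. From the FPKM, limma 3.58.1 in R 4.3.3 was fitted to log2(FPKM + 1) with an intensity trend, on the 4 groups of 10 libraries without other terms, for the 11282 genes whose mean reached 0.5 FPKM. This scale understates the change of low genes. A further 2664 transcripts were at 0 everywhere. Two-sided p-values were corrected by the Benjamini-Hochberg method over all genes tested. Folds are ratios of mean FPKM. The alternatives were another pseudocount (0.1 FPKM), no filter, quantile and median-of-ratios scaling, limma's voom on the recovered reads, array weights, only the groups compared, a replicate block, and leaving out each library.

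Values per library are given, in each role, for the gene with the highest mean and the gene with the widest OAC against HC difference. They are also given for genes not called where the median gene was. In the other lists, up to 4 called genes of each direction with the widest differences are given. Of the 10 inhibitors tested only some are named, and Cdkn1b, Cdkn1c and Btg2 have no values here. Genes below 0 in OAC against HC or above 0 in KT against SHAM, or not called, were named after their values were seen. The genes and lists were chosen with earlier results of these data known. Promoters were matched by symbol to RefSeq's table (GRCr8).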

Additional observations from a re-analysis of the deposited data

How the results depend on the processing

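The count of proliferation genes called higher in OAC than in HC was 37 to 39 over the alternatives that kept all libraries, and 35 to 40 when 1 library was left out. Timeless lost its call in 9 alternatives, Mcm7 in 2 and Cdc6 and Foxm1 in 1 each. For SHAM against HC the count was 35 to 38, and 27 to 39 with 1 library left out. For KT against HC it went from 16 to 10 without the filter, 5 with voom on recovered reads and 5 with the replicate block. It was 0 with array weights and 0 with only the groups compared. With the pseudocount of 0.1 FPKM and with quantile scaling 1 gene gained a call in each. With median-of-ratios scaling 2 genes lost theirs. The count also moved widely when 1 library was left out, and the cause was not tested. For the proliferation genes KT against SHAM, KT against OAC and SHAM against OAC gave 0 calls in every alternative, leave-one-out fits included (0 to 0). Directions turned for 2 proliferation genes in KT against HC: Timeless, which ran from -0.041 without KT replicate 1 to 0.49 without KT replicate 2, and Tpx2, from -0.47 without HC replicate 2 to 1.43 without HC replicate 1. Outside the list they turned in OAC against HC for E2f6, from -1.02 without HC replicate 2 to 0.36 without HC replicate 1, and for Ccnd2, at 0.035 with the replicate block and from -0.32 without HC replicate 1 to 0.28 without HC replicate 2. Deviations from the group means correlated above 0.1 in 4 of 13 same-numbered pairs of libraries and in 12 of 24 others. In a group of 2 libraries the deviations mirror each other, so these pairs are not separate observations. They cannot decide whether the replicate numbers pair the libraries. Under the replicate block the counts were 38 for OAC against HC and 35 for SHAM against HC. Taking the median gene relative to HC in place of the summed FPKM, OAC stood at 3.01 times HC in place of 2.60, at 0.441 times per Camp in place of 0.381 and at 1.496 times per Alas2 in place of 1.29, and SHAM at 1.06 times per Alas2 in place of 0.964. Groups hold 2 or 3 libraries, and the 0 calls between SHAM and OAC do not show that the levels were equal. Counts in the alternative fits are given without the share of all genes called in the same fit. They do not show whether the proliferation genes lost or gained calls more than other genes did.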
